A study of Mus musculus with 10 samples.

Results

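The Egr genes encode zinc-finger transcription factors that neurons switch on within minutes of synaptic input, and the Nab genes encode corepressors that bind them. This account covers Egr1, Egr2, Nab1 and Nab2, taken by gene symbol: every probe set annotated to 1 of these 4 genes alone was used, which gave 5 probe sets, 2 for Egr1 and 1 for each of the others. The whole table held 12422 probe sets that are not controls, and its single-gene probe sets carried 8251 symbols. Of the 5 member probe sets, 4 passed the filter on low signal and were tested; the dim second probe set of Egr1 did not and is given by array.

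RNA was measured in visual cortex of wild-type C57Bl6 mice on 10 one-colour oligonucleotide arrays, 1 per sample. All animals lost 1 eye at postnatal day 14, and tissue was collected at postnatal day 18, after 4 days. Deprived cortex (5 samples) is the side opposite the missing eye, which loses most of its visual drive, and non-deprived cortex (5 samples) is the side of the missing eye. No animal kept both eyes, so a value described as lower is lower in deprived than in non-deprived cortex of operated mice. The labels give 4 mice and describe the samples as pooled, without saying which animals went into which sample; p-values thus reflect only the spread among these samples, and that spread may be technical.

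Egr proteins bind a GC-rich DNA element through their zinc fingers and act downstream of calcium, ERK kinase and CREB signalling. Egr1 is widely used to map active neurons in visual cortex, and its level is known to depend on light and on input from the eyes. Egr2, known also for its part in hindbrain patterning and in myelination by Schwann cells, follows activity in cortical neurons too. Nab1 and Nab2 dock onto an inhibitory domain of Egr proteins and repress their target genes. Nab2 is itself an inducible gene and a target of Egr factors, which makes it part of a negative feedback loop, whereas Nab1 is regarded as the more steadily expressed of the pair.

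The start-site windows of the members differ in the regulatory letters they hold, and those of Egr2 and Nab1 are shown because they carry the contrast between response elements and Egr sites. Each window spans 250 bases before to 50 bases after a gene start in RefSeq's table for mouse build GRCm38.p6. Both strands were searched for the Egr site GCGNGGGCG, the cyclic AMP response element TGACGTCA, its short form TGACG, and the serum response element (CArG box), which binds serum response factor. Capitals below mark every match, and the short form is contained in the long one. The Egr2 window lies at chr10:67537619-67537918 on the plus strand and the Nab1 window at chr1:52500399-52500698 on the minus strand, both written 5′ to 3′ in the direction of the gene.
Egr2: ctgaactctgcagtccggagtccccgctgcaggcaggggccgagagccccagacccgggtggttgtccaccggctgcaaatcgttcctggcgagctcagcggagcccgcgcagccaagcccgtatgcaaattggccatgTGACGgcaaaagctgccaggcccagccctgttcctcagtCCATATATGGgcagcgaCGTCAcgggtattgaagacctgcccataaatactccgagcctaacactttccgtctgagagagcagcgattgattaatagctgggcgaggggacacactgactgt
Nab1: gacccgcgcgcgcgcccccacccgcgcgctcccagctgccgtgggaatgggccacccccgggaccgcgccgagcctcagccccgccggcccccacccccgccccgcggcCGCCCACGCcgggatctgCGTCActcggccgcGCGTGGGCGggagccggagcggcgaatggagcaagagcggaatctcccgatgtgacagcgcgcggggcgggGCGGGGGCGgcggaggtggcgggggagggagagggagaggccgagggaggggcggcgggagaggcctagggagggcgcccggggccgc

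The Egr2 window held 1 serum response element, whose first base lies at position -72 from the start, and 2 short cyclic AMP elements, at -111 and -55. Of all 32851 windows of this length in the table, 1.63% held a serum response element and 20.8% a short cyclic AMP element. RefSeq lists 5 start windows for Egr2, of which 3 overlap at this place and hold the same matches; 1 further window, upstream, held another serum response element and the most upstream window held none of the 4 motifs. The Nab1 window held 3 Egr sites, at -141, -109 and -38, and 1 short cyclic AMP element. An Egr site was present in 5.55% of all windows. The Nab1 window has a GC content of 81.7%, and the fixed letters of the Egr site are all G or C. The single Nab2 window (chr10:127666654-127666953, minus strand, GC content 74%) held none of the 4 motifs, which says only that these letters are not within it. The long cyclic AMP element was in none of the member windows and in 1.79% of all windows. These matches describe letters and were not measured as binding in these samples, and no window for Egr1 was used here.

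For both Egr factors every deprived array read below every non-deprived array (on the bright probe set of Egr1), Nab2 had a smaller difference of the same sign, and Nab1 the smallest. Signals are MAS5 values in arbitrary units, scaled by the authors to a common level per array, so each difference is relative to the array's average. In whole tissue, fewer cells of a type and less RNA per cell cannot be told apart. Fold differences below are limma estimates on log2(signal + 16), and adjusted p-values come from limma with Benjamini-Hochberg adjustment over all 7453 tested probe sets, with a threshold of 0.05.

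Egr1 was read at 5006.7, 5241.2, 5351.7, 5945.1 and 4991 in deprived replicates 1 to 5. The non-deprived replicates 1 to 5 gave 6648.4, 8691.2, 6268.5, 7113.3 and 8374.1. The highest deprived array, replicate 4, lay 323 units below the lowest non-deprived array, replicate 3, so the groups did not overlap. The means were 5307 ± 388 in deprived and 7419 ± 1066 in non-deprived cortex (SD, n = 5 each), which is 28.5% lower. On the log2 scale the difference was -0.47 ± 0.10 (SE), with a 95% interval from -0.68 to -0.26. The coefficient of variation was 7.32% in deprived and 14.4% in non-deprived cortex. Ranked by limma p, this probe set stood at 5 of 7453, but its limma adjusted p was 0.36.

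Egr2 signals were 662.9, 485.7, 828.3, 1006.3 and 812.4 in deprived replicates 1 to 5. The non-deprived replicates 1 to 5 gave 1076.2, 1285.4, 1518.5, 1083.9 and 1156.9. The groups again did not overlap: the nearest arrays, deprived replicate 4 and non-deprived replicate 1, were 69.9 units apart. Mean signals were 759 ± 195 and 1224 ± 185 (SD, n = 5 each), 38% lower in deprived cortex. The log2 difference was -0.71 ± 0.16 (SE; 95% interval -1.06 to -0.35), rank 13 by limma p, with a limma adjusted p of 0.447. For Egr2 the deprived group had the wider spread, with a coefficient of variation of 25.7% against 15.1%. Deprived replicate 2 was the lowest array, and without it the log2 difference was -0.56 ± 0.13 (SE). Of all tested probe sets, 0.322% had a larger absolute log2 difference than Egr2 and 1.54% a larger one than Egr1.

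**Figure D1:**
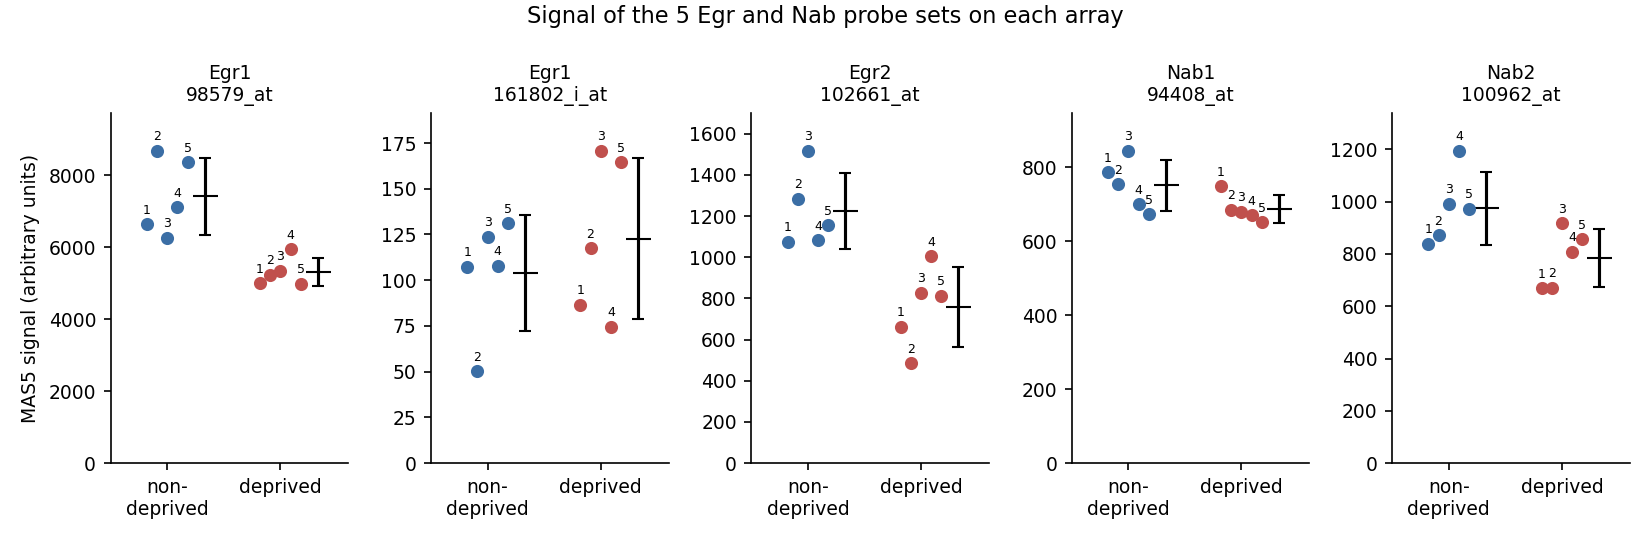
MAS5 signal in arbitrary units (vertical axis, starting at 0 in each panel) of the 5 Egr and Nab probe sets on the 5 non-deprived (blue) and 5 deprived (red) arrays, with replicate numbers beside the points and black bars for the mean and SD. For the bright Egr1 probe set (leftmost) and Egr2 all red points lie below all blue points; for the dim Egr1 probe set, Nab1 and Nab2 the groups overlap.

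Nab2, the inducible corepressor, was read at 670.1, 671.1, 917.1, 809.2 and 856.7 in deprived replicates 1 to 5. In non-deprived replicates 1 to 5 it was read at 838.6, 872.5, 992.8, 1195.7 and 972.4. Here 3 deprived arrays were under the lowest non-deprived array and 3 non-deprived arrays over the highest deprived one, and the remainder overlapped. The means were 785 ± 111 and 974 ± 140 (SD, n = 5 each), 19.5% lower in deprived cortex. The log2 difference of -0.31 ± 0.12 (SE; 95% interval -0.56 to -0.05) had an unadjusted limma p of 0.0216, rank 151, and a limma adjusted p of 0.992. With 1 array left out at a time, the unadjusted p lay above 0.05 in 3 of 10 cases, without deprived replicate 1 (0.0593), deprived replicate 2 (0.0557) or non-deprived replicate 4 (0.065).

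Nab1, its paralogue, varied least of the tested members, over a 1.30-fold range on the 10 arrays against 1.78-fold for Nab2, 1.74-fold for Egr1 and 3.13-fold for Egr2. Its signals were 749.3, 685.3, 679.7, 670.6 and 651.4 in deprived replicates 1 to 5. The non-deprived replicates 1 to 5 gave 786.4, 754.2, 845.2, 700.3 and 672.4. All 5 deprived arrays lay below the non-deprived median of 754, yet the groups overlapped. The means were 687 ± 37 and 752 ± 68.7 (SD, n = 5 each). The log2 difference was -0.12 ± 0.09 (SE; rank 1308, limma adjusted p = 0.992). Its 95% interval reaches from 19.4% lower to 4.56% higher in deprived cortex.

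The second Egr1 probe set, whose suffix marks an incomplete set of probes, gave another picture at much lower signal. It read 86.6, 117.6, 170.9, 74.5 and 164.4 in deprived replicates 1 to 5 and 107.3, 50.4, 123.9, 107.9 and 131.1 in non-deprived replicates 1 to 5. Its means were 123 ± 43.9 and 104 ± 31.7 (SD, n = 5 each), 17.9% higher in deprived cortex, and the groups overlapped in part: 2 deprived arrays lay above the non-deprived maximum, and non-deprived replicate 2 lay below the deprived minimum. Its geometric mean signal of 108 lay just under the filter, which stood at 115. Without the filter its log2 difference was 0.20 ± 0.27 (SE), with a 95% interval from -0.38 to 0.78, and without non-deprived replicate 2, the lowest array at 50.4, the difference was -0.00025. Its coefficient of variation, 35.8% for deprived and 30.5% for non-deprived samples, was the widest spread of the 5 probe sets. The disagreement of the Egr1 probe sets, taken as a within-array log2 difference, was -0.67 ± 0.36 (SE, n = 5 each; two-sided, exact permutation p = 0.111); this test was added after the values were seen.

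None of the 4 tested members passed the adjusted threshold, and neither did any other probe set. Limma called 0 of 7453 probe sets (0%) at an adjusted p of 0.05, against 357 at an unadjusted p under 0.05 (176 lower and 181 higher). That count is about what this unadjusted threshold gives when no probe set differs. At that unadjusted threshold 3 of the 4 tested members (Egr1, Egr2 and Nab2) were lower, where 2.36% of all tested probe sets were lower. The groups did not overlap, with deprived lower, for 2 of 4 members against 0.47% of tested probe sets. The median log2 difference was -0.39 over the 4 members and 0.0066 over all tested probe sets. The members were chosen with earlier results of these data known, so these contrasts describe them and are not a test of the family. The limma estimates correspond to 1.39-fold for Egr1, 1.63-fold for Egr2, 1.24-fold for Nab2 and 1.09-fold for Nab1.

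**Figure D2:**
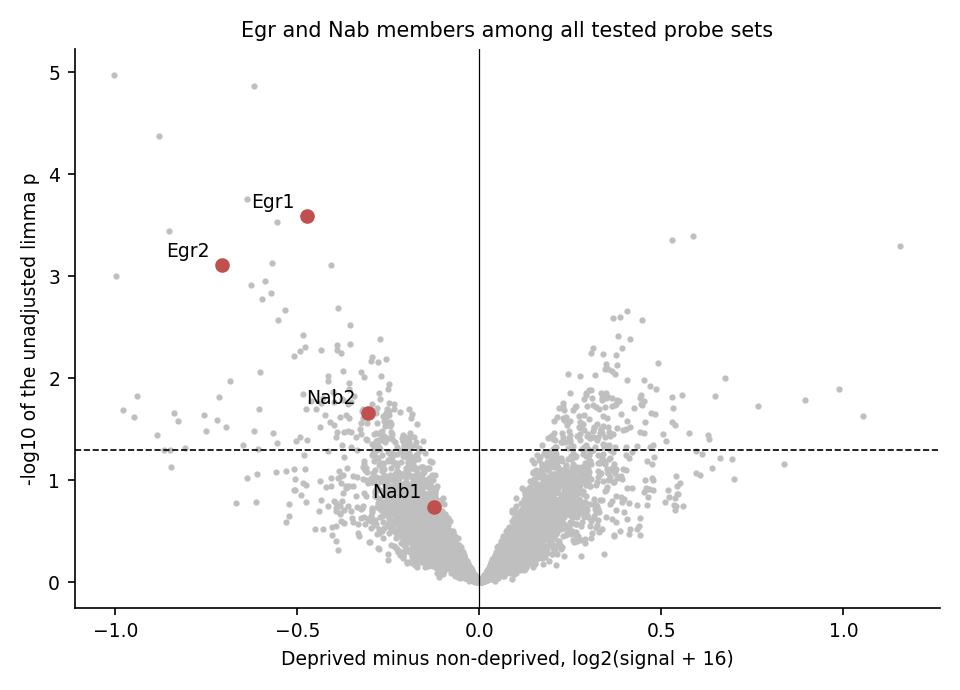
Log2 difference, deprived minus non-deprived (horizontal axis), against -log10 of the unadjusted limma p (vertical axis) for the 7453 tested probe sets in grey, with the 4 tested members in red and a dashed line at the unadjusted threshold of 0.05. Egr1 and Egr2 lie near the upper left edge (ranks 5 and 13 by p), Nab2 just above the line and Nab1 below it.

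The estimates of the 4 tested members, for Egr1 on the bright probe set, kept their sign under all 18 alternative settings, 10 of which left out 1 array. Egr1 ranged from -0.53 to -0.41 on the log2 scale, Egr2 from -0.82 to -0.56, Nab2 from -0.36 to -0.23 and Nab1 from -0.16 to -0.08. No member passed a limma adjusted p of 0.05 under any of them, the smallest being 0.182 for Egr1 with the replicate number as a block.

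**Figure D3:**
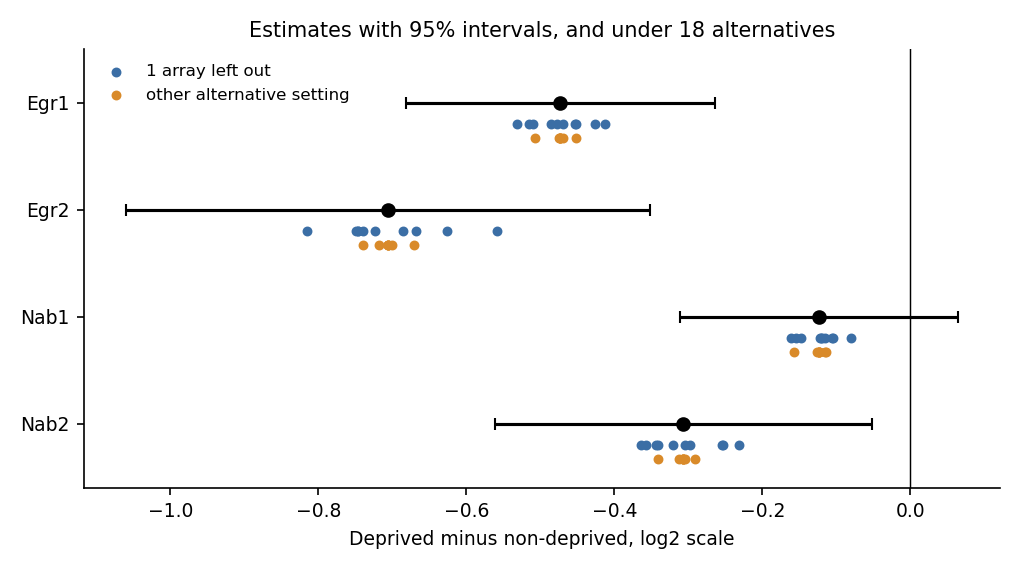
Log2 difference, deprived minus non-deprived, of the 4 tested members (black points, with 95% limma intervals), and the estimates with 1 array left out (blue) or under another alternative setting (orange). All points lie below 0, and the interval of Nab1, the one that includes 0, ends at 0.06.

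Whether the members differed from one another in the size of the difference was tested on within-array log2 differences, using all 252 ways to divide the arrays 5 to 5 (exact permutation, two-sided) and adjusting over the 5 pairs compared. Nab1 was not compared with Nab2. Among the pairs compared, the widest gap was between Egr2 and Nab1. The within-array log2 difference Egr2 minus Nab1 lay between -0.48 and 0.57 in deprived and between 0.44 and 0.83 in non-deprived arrays, so the groups overlapped. The gap was -0.58 ± 0.20 (SE, n = 5 each; exact permutation p = 0.0159, adjusted over the pairs 0.0794). Without deprived replicate 4, the array with the highest deprived Egr2 signal, it was -0.70 and the adjusted exact permutation p was 0.0397.

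The other pairs gave smaller gaps. Egr2 minus Nab2 was -0.40 ± 0.18 (SE, n = 5 each; exact permutation p = 0.0794, adjusted 0.132), and Egr1 minus Nab1 was -0.35 ± 0.15 (exact permutation p = 0.0714, adjusted 0.132). Egr1 minus Nab2 was -0.17 ± 0.16 and Egr1 minus Egr2 was 0.23 ± 0.21, both with an exact permutation p adjusted to 0.405. Single arrays moved these 2 gaps by over 1.5 times: with 1 array left out, Egr1 minus Nab2 ran from -0.25 to -0.07 (without non-deprived replicate 2) and Egr1 minus Egr2 from 0.09 (without deprived replicate 2) to 0.30. With all 10 arrays, no pair passed 0.05 after adjustment; the smallest p this design allows is 0.00794 before adjustment. Misses of the threshold do not show that 2 members behaved alike.

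**Figure D4:**
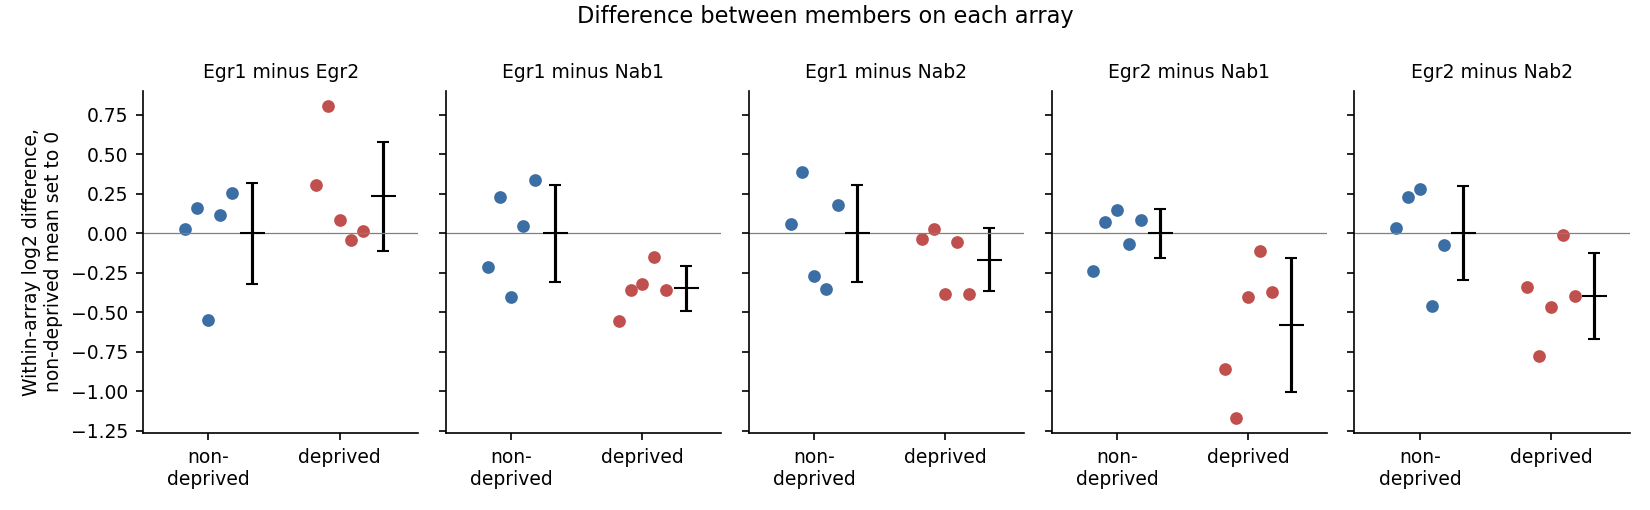
Within-array log2 difference between pairs of members (vertical axis, with the mean of the non-deprived arrays set to 0 in each panel) on the 5 non-deprived (blue) and 5 deprived (red) arrays, with mean and SD in black. The deprived mean lies 0.58 below 0 for Egr2 minus Nab1 and 0.23 above 0 for Egr1 minus Egr2. The groups overlap in every panel.

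Variation among arrays of a group was compared between members. After subtraction of each group's mean from the log2 values, the Pearson correlation over the 10 arrays was 0.13 between Egr1 and Egr2 (Spearman 0.12), 0.44 between Egr2 and Nab2 (Spearman 0.49) and -0.59 between Egr1 and Nab1 (Spearman -0.48). The 2 Nab genes gave -0.47 (Spearman -0.58). Taken over the 5 arrays of 1 group, the values differed between the groups: for Egr1 and Egr2 Pearson r was 0.53 over deprived but -0.20 over non-deprived arrays, and for Egr2 and Nab2 it was 0.75 and -0.09. The array with the highest Egr1 signal was non-deprived replicate 2, whereas Egr2 and Nab1 peaked on non-deprived replicate 3 and Nab2 on non-deprived replicate 4. At the low end, deprived replicates 1 and 2 had the lowest Egr2 and the lowest Nab2 signals. These correlations are descriptions over 10 arrays that share their scaling.

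**Figure D5:**
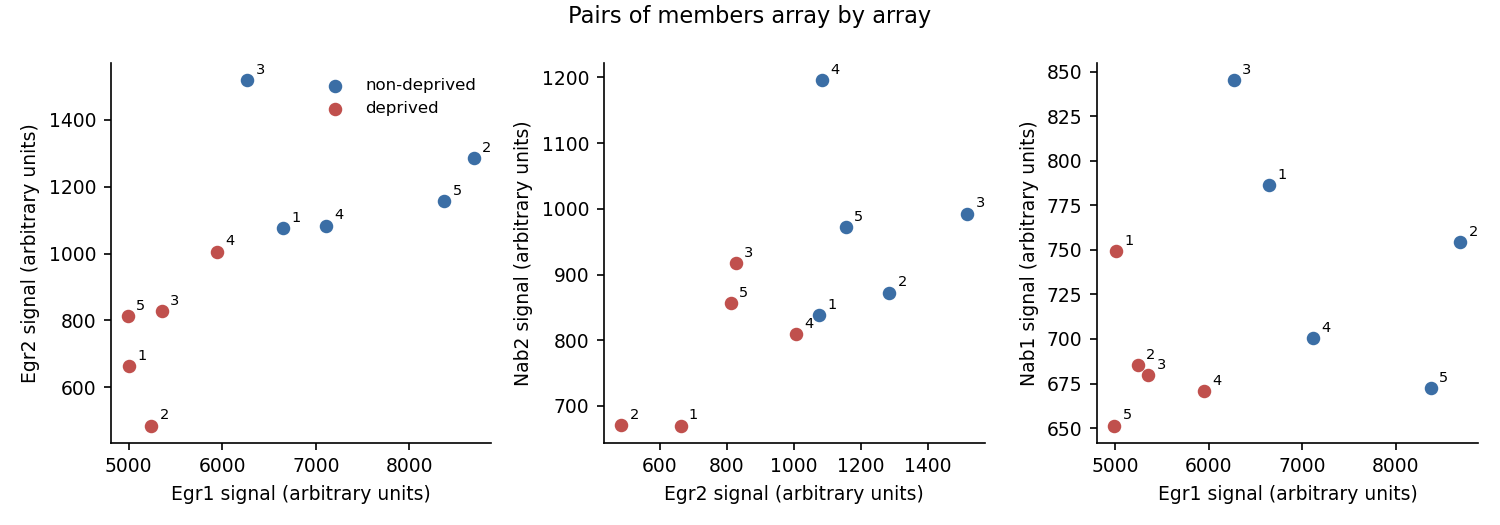
Signal in arbitrary units of 1 member against another on the 10 arrays (blue non-deprived, red deprived, replicate numbers beside the points; axes do not start at 0): Egr1 and Egr2, Egr2 and Nab2, Egr1 and Nab1. In the left panel the 2 groups are apart on both axes, while the group-centred Pearson r over the 10 arrays is 0.13, with 0.53 in the deprived and -0.20 in the non-deprived group.

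By the same group-centred measure, Pearson r over 10 arrays, the genes most like each member were looked up among 6741 other tested single-gene probe sets. Those most like Egr1 were Vps37c (0.90), Wdr45b (0.89), Celf2 (0.88), Itih5 (0.87) and Tek (0.86), whose own log2 differences between the groups lay between -0.14 and 0.29. Those most like Egr2 were Snx6 (0.94), Stom (0.90), Cyb5b (0.89), Clptm1l (0.89) and Zfp94 (0.89), with log2 differences from -0.16 to 0.08. Nearest to Nab1 were Cpne1 (0.93), Rsl24d1 (0.90) and Arpp19 (0.89), and nearest to Nab2 were Nppa (0.96), Snrk (0.92) and Gabrd (0.89). Each is the top of many comparisons on few arrays. Arpp19, a regulator of a protein phosphatase, had the smallest unadjusted limma p among these 16 genes (log2 -0.22 ± 0.08 SE, limma adjusted p = 0.992).

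The neighbours of the Egr proteins in their pathway were read from 5 lists of genes, and no member of any list passed the limma adjusted threshold in either direction (background 0%). Of 26 upstream genes (ERK cascade, serum response factor partners and CREB family), 9 were tested and none had an unadjusted limma p under 0.05. Their median log2 difference was 0.02, against 0.0066 over all tested probe sets. Crem, a CREB-family factor with inducible repressor forms, came lowest by p (log2 -0.19 ± 0.17 SE, signals 152 and 176). Crebbp, a coactivator that CREB recruits, had 0.12 ± 0.15 and Mrtfa, a coactivator of serum response factor, -0.11 ± 0.14 (SE).

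Of 28 genes named in the literature as Egr1 targets in various cell types, 15 were tested. Among those tested, 7 had estimates below 0, beside 48% of all tested probe sets, and the median was 0.04. The insulin-like growth factor gene Igf2 was the 1 with an unadjusted limma p under 0.05, and it was higher in deprived cortex (2588 ± 574 against 2063 ± 119, SD, n = 5 each; log2 0.30 ± 0.13 SE, limma adjusted p = 0.992), where 2.43% of all tested probe sets were higher at that threshold. Igf2 is also a meningeal and choroid plexus marker. The synaptic vesicle gene Syn2 had signals of 1490 ± 75.2 and 1696 ± 194 (SD, n = 5 each; log2 -0.18 ± 0.09 SE, limma adjusted p = 0.992). The angiotensin-converting enzyme gene Ace had a log2 difference of 0.27 ± 0.15 (SE).

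Of 15 genes linked to Egr2 in Schwann cells or the hindbrain, not all of them its targets, 9 were tested. Of these, 2 had estimates below 0, beside 48% of all tested probe sets, and the median was 0.06. None had an unadjusted limma p under 0.05. The myelin adhesion gene Mag had a log2 difference of 0.29 ± 0.15 (SE), the hindbrain homeobox gene Hoxa2 one of 0.33 ± 0.18 at signals of only 142 and 108, and the myelin gene Pmp22 one of -0.21 ± 0.13.

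Of 20 corepressor genes, among them subunits of the NuRD complex that Nab2 recruits, 15 were tested. Among those tested, 7 had estimates below 0, beside 48% of all tested probe sets, and the median was 0.02. Tle1, a Groucho-type corepressor, had a log2 difference of -0.19 ± 0.13 (SE), the scaffold gene Sin3a one of 0.12 ± 0.09 and Rbbp4, a histone-binding subunit, one of -0.09 ± 0.08. Chd4, the NuRD helicase, had mean signals of 4761 and 4541 on a probe set of family type. Of 6 other zinc-finger factors that bind GC-rich boxes, 2 were tested: Sp1 had a log2 difference of 0.11 ± 0.21 and Sp3 one of -0.02 ± 0.12 (SE). Egr3 and Egr4, the remaining Egr genes, are among these 6, but no probe set was annotated to either alone, so neither was analysed here.

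Cell markers and array measures were compared between the groups beside these values. The genes listed for excitatory cortical neurons (7 of 8 on the array) were led by Snap25, which neurons in general express. Snap25 alone averaged 13053 in deprived and 12765 in non-deprived cortex. The sum over the list ran from 28789 to 32165 in deprived and from 30053 to 31956 in non-deprived arrays. For the other 7 marker lists the group ranges overlapped as well: inhibitory neurons (6 of 6 genes), astrocytes (5 of 6), oligodendrocytes (5 of 6), microglia (6 of 6), endothelium (6 of 6), meninges and choroid plexus (6 of 6, summed signal 7841 to 15141 in deprived and 7213 to 11087 in non-deprived arrays) and peripheral glia (1 of 4). Of the 40 marker genes tested, 2 had an unadjusted limma p under 0.05 with a higher level in deprived cortex (Igf2 and Slc1a2), or 5%, beside 2.43% of all tested probe sets, and 0 a lower one. The 5 astrocyte markers, with Slc1a2 among them, had a median log2 difference of -0.02, with 3 estimates below 0, and a mean summed signal of 12779 in deprived and 13766 in non-deprived arrays. Median signals ran from 191 to 209 over the arrays. The ratio of 3′ to 5′ actin signal, which rises as RNA degrades, averaged 1.58 ± 0.121 in deprived against 1.58 ± 0.181 in non-deprived samples (SD, n = 5 each) with an exact permutation p of 0.96. Over these 11 measures the smallest exact permutation p was 0.135 (0.611 after adjustment), and their part in the results for the members was not tested. No batch or scan date appears in the labels.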

How the data were processed

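The deposited values are MAS5 signal intensities on a linear scale, 1 per probe set and array, made with MAS5 per the submitters' processing notes; the sources used here give no version or scaling target. Trimmed of the lowest and highest 2%, every array had a mean intensity of 500 after rounding, so the authors had scaled them before deposit. Detection calls were not used here, and precision is limited by the number of arrays.

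Control probe sets (66) were dropped. Gene symbols came from the platform annotation, updated through Entrez IDs. Of the remaining probe sets, 10833 had 1 symbol, 396 several and 1193 none. Signals were converted to log2(value + 16), and probe sets with a mean below the 40th percentile were left out. Limma 3.58.1 in R 4.3.3 (lmFit, eBayes with an intensity trend) compared the groups without covariates. Promoter windows are RefSeq's (GRCm38.p6); 3 of the 4 members had one.

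The members, lists and tests were chosen with earlier results of these data known. Named genes are the members, the genes most like them (5 for each Egr gene, 3 for each Nab gene) and, from each pathway list, the 3 with the smallest p; Chd4 and Slc1a2 were added after their values were seen. Each list gene is read by its brightest probe set. The fit was tested on simulated arrays with known changes in 200 probe sets. At a limma adjusted p under 0.05 it recovered 15.4% of changes of 1.25-fold and 45.6% of those of 1.4-fold. The shares were 74.4% at 1.6-fold and 90.4% at 2-fold. The simulated noise was drawn independently for each probe set and array, and the dimmest probe sets were given no change. Recovery also depends on how many probe sets change, so these shares need not hold for the real arrays.

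Alternatives were pseudocounts of 1 and 64, no filter, a filter at the 60th percentile, quantile normalization, median scaling, eBayes without trend, the replicate number as a block, and each array left out.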

Additional observations from a re-analysis of the deposited data

Results flagged for a closer look

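Of 20 groups of 5 values examined for a single distant array (the signals of the 5 probe sets and the 5 pair differences, in each condition), 1 was marked by Dixon's test, about as many as chance gives at 1 in 20. The within-array log2 difference Egr1 minus Egr2 was 2.03 in non-deprived replicate 3 and between 2.61 and 2.84 in the other non-deprived arrays, a gap of 0.715 of the group's range. That array had the lowest non-deprived Egr1 signal (6268.5) and the highest Egr2 signal (1518.5). Without it, the difference of Egr1 minus Egr2 between the conditions was 0.10 on the log2 scale, against 0.23 with all arrays; without deprived replicate 2, which the test did not mark, it was 0.09.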

How the results depend on the processing

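The 4 tested probe sets, for Egr1 the bright one, kept their sign and stayed above a limma adjusted p of 0.05 under each of the 18 alternatives. The dim Egr1 probe set entered the fit without the filter (log2 0.20) and without non-deprived replicate 2 (-0.00025). The number of calls over all tested probe sets, 0 with all arrays and the reported settings, was 2 with a pseudocount of 64 and also 2 when the filter stood at the 60th percentile. It was 6 under the replicate block. With single arrays left out it ran from 0 to 5: 1 without deprived replicate 4, 5 without non-deprived replicate 1 and 0 without any other. No member was among these calls. For Egr2 minus Nab1 the gap ran from -0.70 to -0.44 over single-array omissions, and the exact permutation p adjusted over the pairs was below 0.05 without deprived replicate 4 (0.0397) only. Same-numbered samples are not stated to share animals; their deviations from the group means correlated at 0.02 to 0.23, and 9 of 10 arrays lay closest to their own number, a hint from the data and not the design. With the replicate block, the log2 differences were unchanged, the limma unadjusted p of Nab2 was 0.00608, and the pair tests by sign flips could not go below 0.0625. Signals near the filter, such as the dim Egr1 probe set, limit what can be said of weak transcripts.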
